A study of Homo sapiens with 2 samples.

Results

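The histone transcripts measured in IL-18-stimulated KG1 cells were the genes whose symbols mark them as linker histones (H1) or core histones (H2A, H2B, H3 and H4). Of the 21357 genes listed for the array 73 match, 65 of them replication-dependent and 8 variant, and they were read by 96 of the 54675 probe sets. A probe set is the group of short probes that an Affymetrix array uses for 1 transcript. The 96 probe sets are listed for 73 histone genes: 53 genes have at least 1 probe set of their own, and 20 are read only by probe sets listed for several genes. Of the 96, 68 are listed for 1 gene and 28 for several, and the shared ones are marked as such throughout. By class, 72 probe sets read replication-dependent histone genes and 24 read variant histone genes. The replication-dependent class includes the pseudogenes H2AC5P and H4C10P.

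KG1 is a line of human leukaemic myeloid blasts that carries progenitor markers. The group siRNA-Tbet received 1.98 µg of an siRNA against T-bet by electroporation, and the group siRNAc received the same amount of a control siRNA. Both groups then rested for 5 h before 12 h with IL-18, a cytokine known for inducing interferon-γ, at 10 ng/ml, so the controls carry the electroporation and the cytokine too. Each group is 1 array of 1 cell line. No difference below therefore has a replicate check, no p-value was computed, and the number of arrays limits the precision.

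Histones are the proteins around which DNA is wound in nucleosomes. Replication-dependent histone genes lie mostly in clusters, lack introns and are expressed in S phase, when new DNA has to be packaged, and their mRNAs end in a stem-loop in place of a poly(A) tail. Variant histone genes are expressed through the cell cycle as polyadenylated mRNAs, and their products replace the canonical histones at particular places in the genome. H2AX is placed with the variants here, although it makes both a stem-loop and a polyadenylated mRNA. Labelling for 3′ expression arrays usually starts from an oligo(dT) primer, which favours polyadenylated RNA; the labels name the manufacturer's standard protocol without stating the primer. Signals of replication-dependent genes may thus stem from a part of their transcripts only, and how large that part is was not tested.

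Histone promoters carry short motifs that differ between the families, and the DNA just before the start site is shown for 4 genes whose signals are described below: a replication-dependent linker histone, a replication-dependent H2B and a variant each of H2A and H3. Each sequence is the 250 bases before the RefSeq start site in GRCh38.p14, read 5′ to 3′ towards the gene. Capitals mark matches on either strand to CCAAT (the CCAAT box), TATAAA (the TATA box), ATTTGCAT (the octamer of H2B promoters) and AAACACA (the H1 box). Neighbouring matches can overlap.
H1-2, chr6:26056471-26056720, minus strand: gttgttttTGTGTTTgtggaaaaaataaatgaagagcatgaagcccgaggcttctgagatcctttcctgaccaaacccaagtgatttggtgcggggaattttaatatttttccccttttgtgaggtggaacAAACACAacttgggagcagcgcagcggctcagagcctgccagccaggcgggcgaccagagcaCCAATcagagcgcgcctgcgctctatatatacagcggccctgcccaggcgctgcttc
H2BC12, chr6:27146859-27147108, minus strand: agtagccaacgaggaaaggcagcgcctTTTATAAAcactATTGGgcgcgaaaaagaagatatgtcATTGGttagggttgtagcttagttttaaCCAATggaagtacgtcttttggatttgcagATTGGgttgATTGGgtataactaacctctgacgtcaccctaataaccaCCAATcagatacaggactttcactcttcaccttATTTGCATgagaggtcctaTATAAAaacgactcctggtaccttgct
H2AX, chr11:119095466-119095715, minus strand: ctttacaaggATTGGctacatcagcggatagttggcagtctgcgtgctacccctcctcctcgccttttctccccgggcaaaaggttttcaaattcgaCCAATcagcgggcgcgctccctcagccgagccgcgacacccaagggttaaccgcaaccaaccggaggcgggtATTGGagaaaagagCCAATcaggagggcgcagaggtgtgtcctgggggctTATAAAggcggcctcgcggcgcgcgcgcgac
H3-3B, chr17:75779780-75780029, minus strand: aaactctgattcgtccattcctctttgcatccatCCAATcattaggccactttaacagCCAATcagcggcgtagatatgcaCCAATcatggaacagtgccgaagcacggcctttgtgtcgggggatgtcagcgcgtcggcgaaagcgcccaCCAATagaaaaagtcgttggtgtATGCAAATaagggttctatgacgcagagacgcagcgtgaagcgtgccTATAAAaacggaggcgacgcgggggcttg
The H1-2 window holds 1 CCAAT box and 2 matches to the H1 box, the nearer 119 bases before the start. The H2BC12 window holds 6 CCAAT boxes and an octamer 46 bases before the start, with a TATA box 27 bases before it. H2AX has 4 CCAAT boxes and a TATA box 31 bases before the start, and H3-3B has 4 CCAAT boxes, an octamer 76 bases and a TATA box 29 bases before it.

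Such windows were found for 65 of the 73 histone genes and for 27305 genes in all. The CCAAT box was present in 47 of 57 replication-dependent promoters (82.5%) and in 7 of 8 variant promoters, against 33.0% of all promoters. Among the replication-dependent families it was in every H1, H2A, H2B and H3 window but in only 3 of 13 H4 windows. The TATA box was in 64.9% of the replication-dependent windows and in 4 of 8 variant windows, against 11.1% of all. The octamer was in 13 of 16 H2B and 8 of 13 H2A windows of that class, against 1.66% of all promoters; it was in 1 of 9 H3, 0 of 6 H1 and 0 of 13 H4 windows, and among the variants in that of H3-3B. The H1 box was in 6 of 6 replication-dependent H1 windows, in that of the variant H1-7 and in 4.95% of all. The T-box half-site GGTGTGA, the core of the sequence that T-bet binds, was in 0 of these 65 histone windows and in 2.72% of all. The E2F site was searched as TTTGGCGC, found in 0 of the 65 and 0.553% of all promoters, and as TTTCCCGC, found in 1 of the 65 and 1.42% of all. A match is a string of letters and not a measured binding site, and these windows cover neither enhancers nor sequence after the start.

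The targeted transcript TBX21, which encodes T-bet, gave 1838.9 signal units with siRNA-Tbet against 3581.3 in the control, which is 51.3% of it. Signals are MAS5 values in arbitrary units on a linear scale, and a signal was counted as measured when it exceeded its array's median (144.2 with siRNA-Tbet and 146.4 with siRNAc) on at least 1 array. Over all probe sets, 29051 were measured, with a rank correlation of 0.938 between the arrays. The progenitor markers CD34, MYB, GATA2 and HLA-DRA were measured on both arrays, as was SPN on 4 _x_at probe sets (732.8 to 2312.9 with siRNA-Tbet), while its other one was below the median on both. Of the markers of other cell types, COL1A2, EPCAM, KRT19, CD3G, CD8A and ALAS2 had no measured probe set. The fibroblast genes COL1A1 (451.9 and 610.0) and DCN (236.9 and 195.0) were measured on 1 _x_at probe set each and not on the one chosen for the gene. CD3D, CD3E, CD4, MS4A1, CD79A, HBB and KRT8 passed it on at least 1 array, with the T cell gene CD3D at 16036.2 and 13657.1. The ratio of 3′ to 5′ control signals was 1.20 and 1.22 for ACTB and 0.975 and 1.01 for GAPDH, with siRNA-Tbet given first.

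Histone signals differed little between the arrays as a group. Of the 96 histone probe sets 60 were measured, and the rest gave no ratio. On the log2 scale of siRNA-Tbet over siRNAc, with signals below an array's median raised to it, 38 of the 60 were lower and 22 higher with siRNA-Tbet, and the median was -0.04. Over all measured probe sets 51.6% were lower and the median was -0.01. Scaling both arrays to the same median gave 32 lower (53.3%) and 28 higher, against 47.8% lower over all, so both shares were smaller. Quantile normalization gave 37 lower (61.7%) and 22 higher, against 50.2% lower over all. Removal of a lowess trend on signal gave 35 lower (58.3%) and 25 higher, against 50.1%. At least 1.5-fold differences were seen in 2 higher and 4 lower histone probe sets, where 2.95% of all measured probe sets were that much higher and 3.56% that much lower. Past 2-fold there were 0 higher and 2 lower, against 0.306% and 0.41% of all.

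**Figure D1:**
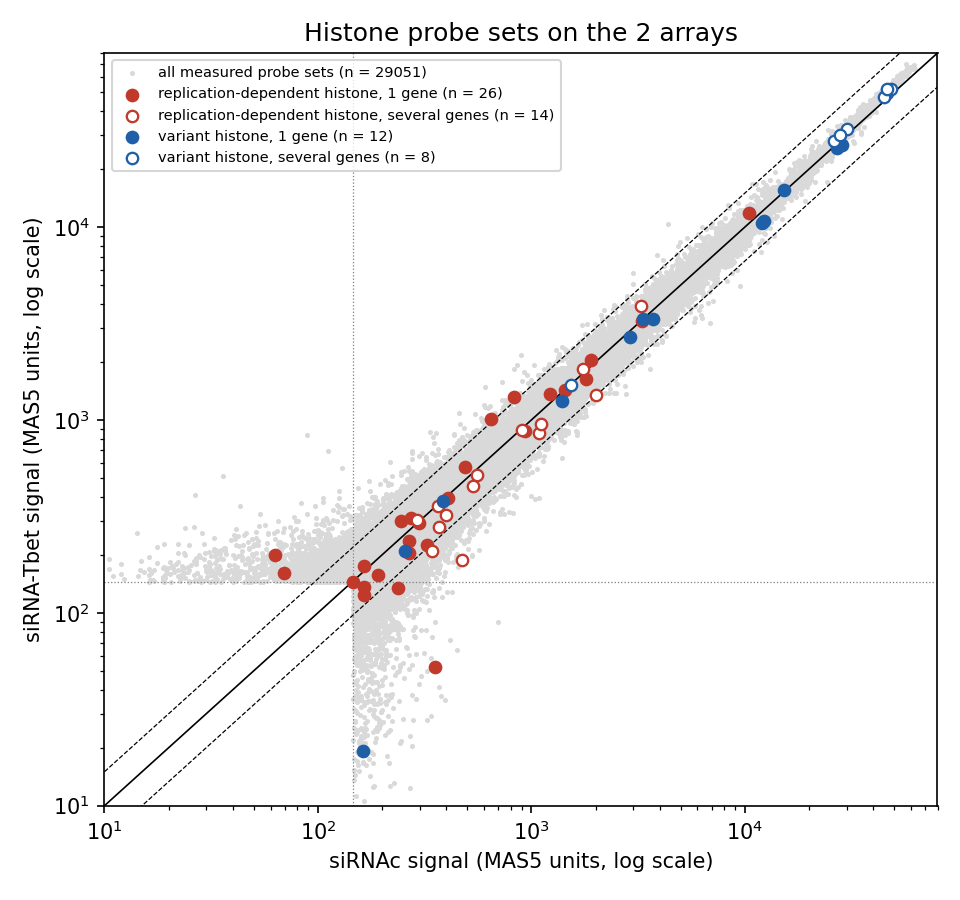
Signal of each measured histone probe set with siRNAc (x axis) and siRNA-Tbet (y axis), in MAS5 units on log scales that start at 10; red points are replication-dependent, blue points variant, open points are listed for several genes, and grey points are the 29051 measured probe sets of the array. The solid line marks equal signals, dashed lines 1.5-fold differences and dotted lines the array medians; the 20 variant points stay between the dashed lines except that of H1-7, which lies below the siRNA-Tbet median.

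The medians of the classes lay close together, and the ratios of replication-dependent probe sets covered a wider range. The 40 measured replication-dependent probe sets had a median log2 ratio of -0.05, with a range from -1.33 to 0.66. The 20 measured variant probe sets had a median of -0.02, with a range from -0.29 to 0.16. The difference of the medians, replication-dependent minus variant, was -0.03. Among all measured probe sets 2.95% were at least 1.5-fold higher and 3.56% that much lower. All 6 histone differences of that size were in replication-dependent probe sets. Of the variant probe sets 0 of 20 passed it, a count near those shares. That count and both ranges depend on raising low signals to the median: with no floor the variant H1-7 was at -3.08 and the replication-dependent H3C8 at -2.76. The classes also differ in signal, and dim probe sets are noisier. The technical spread came from the 2 brightest measured probe sets of each gene. It is the SD of their difference in log2 ratio, divided by the square root of 2. Genes were grouped by the signal of the brighter probe set, and the other one can be dimmer. The spread had a median of 0.401 over the replication-dependent probe sets and 0.172 over the variant ones. In units of that spread, 5 of 40 replication-dependent and 0 of 20 variant probe sets lay beyond 2, as did 4.05% of all measured probe sets. The spread covers neither cultures nor RNA preparations.

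Replication-dependent probe sets were measured about as often as those of the whole array, and many genes of the class gave no usable signal. Of the 46 genes of this class with a probe set of their own, 22 were measured and 24 were not. The 24 include the pseudogenes H2AC5P and H4C10P. Over the array 12164 of 19775 genes were measured. The 32 probe sets of the class that were not measured had signals from 4.7 to 121.7 with siRNA-Tbet and from 3.6 to 139.7 with siRNAc. In all, 55.6% of replication-dependent and 83.3% of variant probe sets were measured, against 53.2% of all probe sets of the array. The linker histone genes H1-1, H1-3, H1-4 and H1-5 were among those below the median on both arrays.

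**Figure D2:**
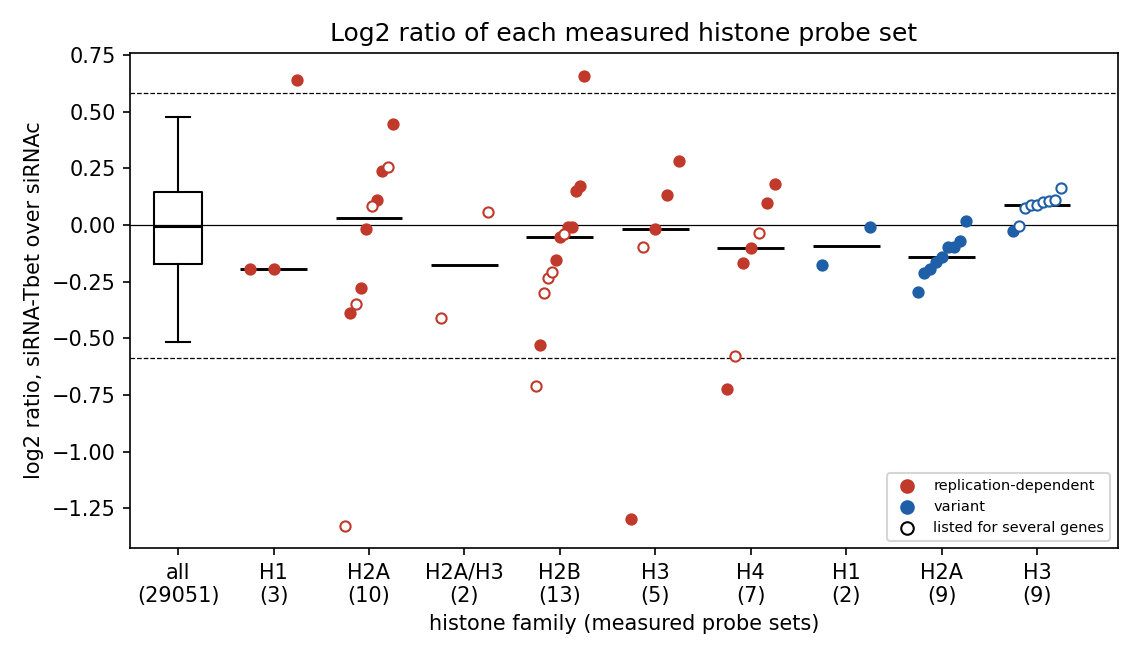
Log2 ratio of siRNA-Tbet over siRNAc for each measured histone probe set, by class and family (x axis, with the number of probe sets); H2A/H3 marks probe sets listed for genes of both families, open points are listed for several genes, thick lines are medians, and dashed lines mark 1.5-fold. The box shows all 29051 measured probe sets, with the median, the quartiles and whiskers at the 5th and 95th percentiles; with low signals raised to the median, replication-dependent points run from -1.33 to 0.66 and variant points from -0.29 to 0.16 (H1-7 is at -3.08 with no floor).

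Among the linker histones, only H1-2 passed 1.5-fold with low signals raised to the median. It encodes a somatic H1 that binds the DNA between nucleosomes, and its promoter is the first of those shown above. Its signal was 1013.3 with siRNA-Tbet against 649.8 in the control, higher by 1.56-fold (log2 ratio 0.64), and the log2 ratio was 2.37 times the technical spread. H1-2 has only this probe set, so no second reading of the gene was possible. With the floor at the 75th percentile its log2 ratio was 0.15. Such values are not rare: 2.95% of all measured probe sets were at least 1.5-fold higher, and 4.05% lay beyond 2 spreads in either direction. H1-6, the testis H1, had siRNA-Tbet signals of 123.2 and 135.9 on its 2 probe sets, both under the array median, and siRNAc signals of 164.9 and 164.8. Its difference was at least 1.14-fold, lower with siRNA-Tbet, at a signal close to the median. The linker variant H1-10 had nearly equal signals of 3330.8 and 3352.6 (log2 ratio -0.01). H1-7, a germline linker histone, had 19.3 and 163.1 on its only measured probe set, which makes it at least 1.13-fold lower, and its other 2 probe sets were below the median on both arrays.

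Replication-dependent H2A genes were split evenly, with 5 of 10 measured probe sets higher and 5 lower and a median log2 ratio of 0.03. H2AC6, a cluster gene for canonical H2A, had signals of 2052.1 with siRNA-Tbet and 1900.9 with siRNAc (log2 ratio 0.11). H2AC14 had 572.9 and 486.3 (0.24) on a probe set that can cross-hybridise, as the suffix _x_at marks. H2AC17 was on the other side with 205.0 and 268.4 (-0.39). These ratios were each within 1 technical spread of 0. H2AC25 had 157.9 and 191.7 (-0.28). H2AC15 had 199.3 with siRNA-Tbet and 62.9, below the median, with siRNAc, which is at least 1.36-fold higher. The H2AC8 signals of 144.6 and 145.4 sat at the medians and give no fold.

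A shared H2A probe set gave the largest histone difference among probe sets above the median on both arrays, but a second one for the same genes did not repeat its size. Probe set 214542_x_at, listed for H2AC11, H2AC12, H2AC13, H2AC15, H2AC16 and H2AC17, had 188.4 with siRNA-Tbet against 472.8 in the control, 2.51-fold lower. The other probe set listed for the same 6 genes had 852.1 and 1084.7 (log2 ratio -0.35). These 2 probe sets shared the direction, and their sizes differed by 0.98 on the log2 scale. The measured probe set of H2AC15 alone was higher (0.45, with its siRNAc signal raised to the median), and that of H2AC17 alone was lower (-0.39). The pair H2AC18 and H2AC19 was read by 2 measured shared probe sets, which had 3902.3 against 3272.2 (0.25) and 1839.3 against 1737.4 (0.08). Both were thus higher, by less than 1.5 spreads. A probe set listed for H2AC7 and 10 H3 genes had 277.2 and 368.4 (-0.41), and one listed for H2AC7 and H3C4 had 301.6 and 290.0 (0.06).

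Of the 13 measured H2B probe sets 10 were lower and 3 higher, with a median log2 ratio of -0.05; with both arrays scaled to the same median 8 were lower and 5 higher. H2BC12, whose promoter carries the octamer shown above, had signals of 11846.3 with siRNA-Tbet against 10512.7 in the control, higher by 1.13-fold and within 1 technical spread. H2BC21 had 393.1 and 408.0 (log2 ratio -0.05), and H2BC4 had 225.1 and 325.0 (-0.53). H2BC12L, H2BC6 and H2BC9, each read by a probe set of the _x_at kind, had ratios of -0.01, 0.15 and -0.15. None of these passed 1.5-fold. H2BC5 did on 1 of its 2 probe sets: 222067_x_at had 1315.0 and 832.3, which is 1.58-fold higher, while 209911_x_at had 1426.0 and 1435.3 (-0.01). The readings of that gene differ by 0.67 on the log2 scale, which is more than the ratio itself. The 5 shared H2B probe sets were all lower. For H2BC8 and H2BC11 the signals were 209.0 against 342.2 on 215779_s_at, which is 1.64-fold lower, and 454.5 against 535.2 on the other (-0.24). The 3 probe sets listed for H2BC4, H2BC6, H2BC7, H2BC8 and H2BC10 had ratios of -0.30, -0.21 and -0.04.

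H3 and H4 genes of the replication-dependent class were read mostly at low signals. H3C6 had 298.7 against 245.7 (log2 ratio 0.28) on 1 probe set and 293.9 against 297.6 (-0.02) on the other. H3C7 had 160.4 with siRNA-Tbet and 69.5 with siRNAc, at least 1.1-fold higher. H3C8 had 52.5 with siRNA-Tbet, below the median, and 354.4 with siRNAc on an _x_at probe set, which is at least 2.46-fold lower. H3C8 is also listed for the shared H3 probe set that had 520.4 and 555.9 (-0.10). It is listed too for the one of H2AC7 and 10 H3 genes that had 277.2 and 368.4 (-0.41). Its own reading and these shared ones were all lower and differ in size. H4C9 had 134.9 and 237.9, at least 1.65-fold lower but within 2 technical spreads. H4C5 had 175.7 and 164.2 (0.10), H4C11 had 872.2 and 936.8 (-0.10), and the 2 probe sets of H4C8 lay on either side of 0, at 0.18 and -0.17. Most genes for H4 encode the same protein, and 14 of them are listed together for 5 probe sets. Of these, 205967_at had 1340.7 with siRNA-Tbet and 2002.8 with siRNAc, 1.49-fold lower and 2.46 times the technical spread. Probe set 208580_x_at, listed for the same genes, had 887.7 and 908.2 (-0.03), and the other 3 were below the median on both arrays.

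Shared and unshared replication-dependent probe sets gave different counts. Of 14 measured shared ones 11 were lower and 3 higher, and these counts held as deposited and under each of 3 other scalings, with medians from -0.22 to -0.20. Of the 26 listed for 1 gene, 15 were lower and 11 higher with a median of -0.01, and scaling to equal medians turned this to 11 lower and 15 higher, where 47.8% of all measured probe sets were lower. The shared probe sets are listed for overlapping genes, so they are not independent readings, and whether the difference between these counts is more than probe noise was not tested.

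Most probe sets of the H2A variants H2AX, H2AZ1 and H2AZ2 were lower by small amounts. H2AX, the variant that is phosphorylated around DNA breaks, had signals of 10450.4 with siRNA-Tbet and 12086.2 with siRNAc on 1 probe set (log2 ratio -0.21). Its other measured probe sets had 1254.8 against 1384.7 (-0.14) and 209.4 against 256.7 (-0.29). All 3 measured probe sets were thus on the same side, each by 1.21 technical spreads or less, and the fourth was below the median on both arrays. H2AZ1 encodes a variant placed around transcription start sites, and its probe sets had 25669.6 against 26915.4 (-0.07) and 26746.4 against 28626.6 (-0.10). Its paralog H2AZ2 had 4 probe sets with ratios of 0.02, -0.19, -0.16 and -0.10, and signals from 2695.1 to 15500.7 with siRNA-Tbet and from 2884.5 to 15292.2 with siRNAc. Together 8 of 9 probe sets of these genes were lower, with a median of -0.14, against 51.6% of all measured probe sets. After quantile normalization or removal of a lowess trend 9 of 9 were lower, against 50.2% and 50.1% of all. The largest of the differences as deposited was 1.23-fold. Probe sets of the same gene are not independent readings.

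The H3 variant genes H3-3A and H3-3B encode the same replacement H3 protein from different mRNAs and share 8 probe sets. Signals on the 7 probe sets that were higher ran from 27880.8 to 52158.9 with siRNA-Tbet and from 26235.0 to 48375.7 with siRNAc. The eighth had 1526.8 and 1529.7. As deposited, 7 of 8 were higher (median log2 ratio 0.09), but after quantile normalization 5 were higher and 3 lower (median 0.02), and the same counts and median followed from removing a lowess trend. Their direction therefore depends on the scaling, at signals near the top of the scale. Each of these 8 probe sets is also listed for the pseudogene H3P6 or for MIR4738, a microRNA. The probe set of H3-3A alone had 378.8 and 385.3 (-0.02).

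**Figure D3:**
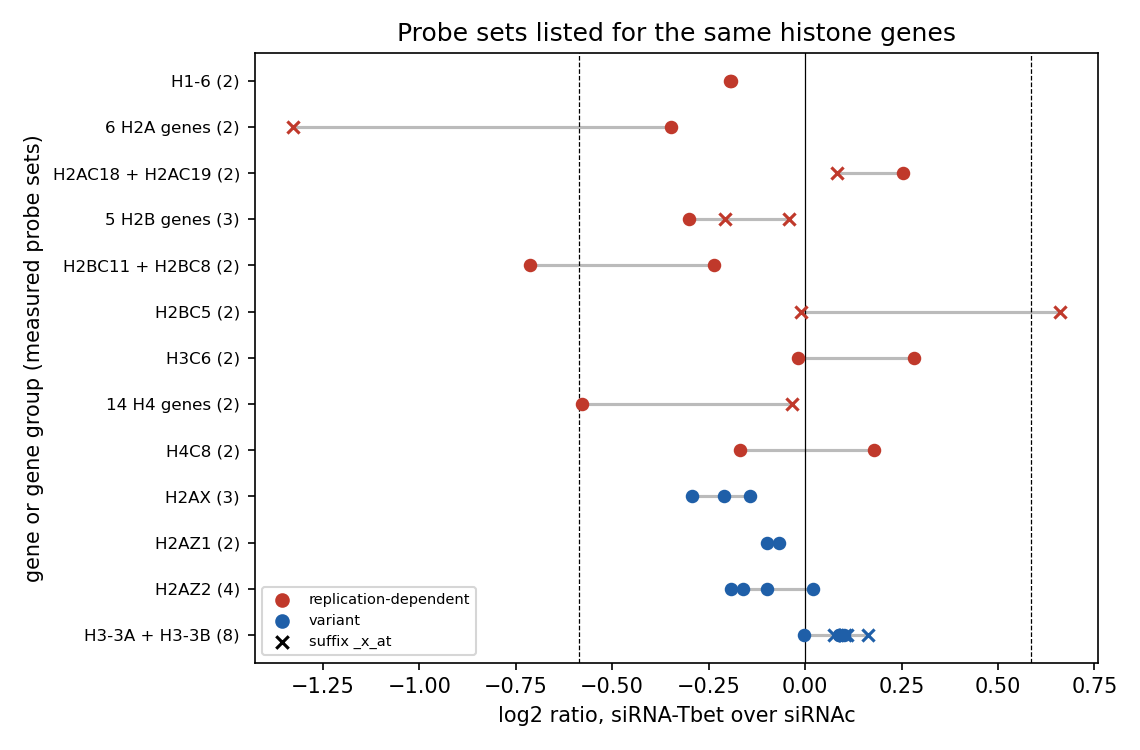
Log2 ratio of siRNA-Tbet over siRNAc (x axis) for the 13 genes or groups of genes that have 2 or more measured probe sets (y axis, with their number); points of a row are probe sets listed for the same genes, crosses carry the suffix _x_at, and dashed lines mark 1.5-fold. In 3 rows a probe set passes 1.5-fold, and in 0 rows do all; for H3-3A and H3-3B the side of 0 depends on the scaling.

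Where histone genes had a second reading, it did not repeat the large differences. There were 13 genes or groups of genes with 2 or more measured probe sets, and in 8 of them the probe sets lay on the same side of 0. In 3 groups a probe set differed at least 1.5-fold, and in 0 groups did all of them. Among all measured probe sets 2.95% were that much higher and 3.56% that much lower. The same counts were not taken for all genes with several probe sets, so these are not read as particular to histone genes. The other 3 probe sets past that size, those of H1-2, H3C8 and H4C9, are the only measured ones listed for that gene alone. Of the 6 probe sets past 1.5-fold, 3 carry the suffix _x_at and 2 rest on a value raised to the median. Among all 60 measured histone probe sets 42 lack that suffix and 8 rest on such a value. Counting only replication-dependent probe sets above the median on both arrays leaves 2 higher and 2 lower of 33, against 2.41% higher and 2.79% lower among all such probe sets.

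Histone genes outside the symbol rule gave 4 measured genes. CENPA, the H3 variant of centromeres, had 2151.2 and 2037.9 (log2 ratio 0.08). MACROH2A1, a large H2A variant, had 26084.2 and 25418.7 (0.04), MACROH2A2 had 384.0 and 439.5 (-0.20), and H2AJ had 201.8 and 160.0 (0.33). The probe sets of H2AJ and MACROH2A1 lay on either side of 0.

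Genes that switch on histone genes or process their mRNAs were mostly a little lower. Of 31 measured genes 20 were lower and 11 higher with a median log2 ratio of -0.05, against 53.7% lower and a median of -0.02 over all 12164 measured genes, each read here by its probe set of highest signal. With equal medians the counts were 17 and 14, against 49.3% lower over all genes. They were 19 and 12 after quantile normalization, against 52.9% lower, and 18 and 13 after removal of a lowess trend, against 53.0%. NPAT, the coactivator of replication-dependent histone genes, had signals of 1383.7 with siRNA-Tbet and 1767.2 with siRNAc, 1.28-fold lower, with -0.32 on its second probe set. SLBP, the protein that binds the stem-loop of these mRNAs, had 11014.1 and 11549.8 (-0.07). E2F1, which drives genes for DNA replication, was 1.5-fold lower (1151.7 and 1733.1) with -0.43 on its second probe set. It was the only member of this list past 1.5-fold, a size reached by 1.96% of all measured genes in the higher and 2.96% in the lower direction. NFYA, a subunit of the factor that binds the CCAAT box, was 1.35-fold higher (3815.4 and 2821.9), with 5 of 5 probe sets on that side. ZNF473, a protein of the U7 processing complex, was 1.19-fold lower.

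Histone chaperones and exchange factors, which carry histones to DNA and swap variants in, were evenly split, with 20 of 42 measured genes higher and 22 lower and a median of -0.02. NPM3 had 1360.3 and 2015.8 and was 1.48-fold lower, the largest difference of the list. CDAN1, a partner of the chaperone ASF1, was 1.28-fold higher. YEATS4 and EP400, both subunits of complexes that exchange H2A variants, were 1.25-fold and 1.21-fold lower. No gene of this list passed 1.5-fold, where 1.96% of all measured genes were that much higher and 2.96% that much lower.

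S phase genes were lower in larger number. Of 50 measured genes 39 were lower (78.0%) and 11 higher with a median of -0.09. Over all measured genes 53.7% were lower and the median was -0.02. The lower count was 38 to 44 (76.0% to 88.0%) as deposited and under 3 other scalings, against 49.3% to 53.7% of all genes. TK1, thymidine kinase, was 1.38-fold lower (3420.7 and 4705.7), with -0.46 on both probe sets. CDC25A, a phosphatase of S phase entry, was 1.29-fold lower (4195.8 and 5426.8), and its other probe sets were at -0.35 and -0.08. HELLS, a chromatin remodeller, was 1.28-fold lower, with 4 of 5 lower in all. WDR76 was the only one past 1.5-fold, at 1.56-fold lower (892.3 and 1393.1), and had 0.19 on its second probe set. Of all measured genes 1.96% were that much higher and 2.96% that much lower. Replication-dependent histone genes are expressed in the same phase; whether the S phase values have a part in the histone values was not tested. A smaller share of cells in S phase and less RNA per cell cannot be told apart in these bulk samples.

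**Figure D4:**
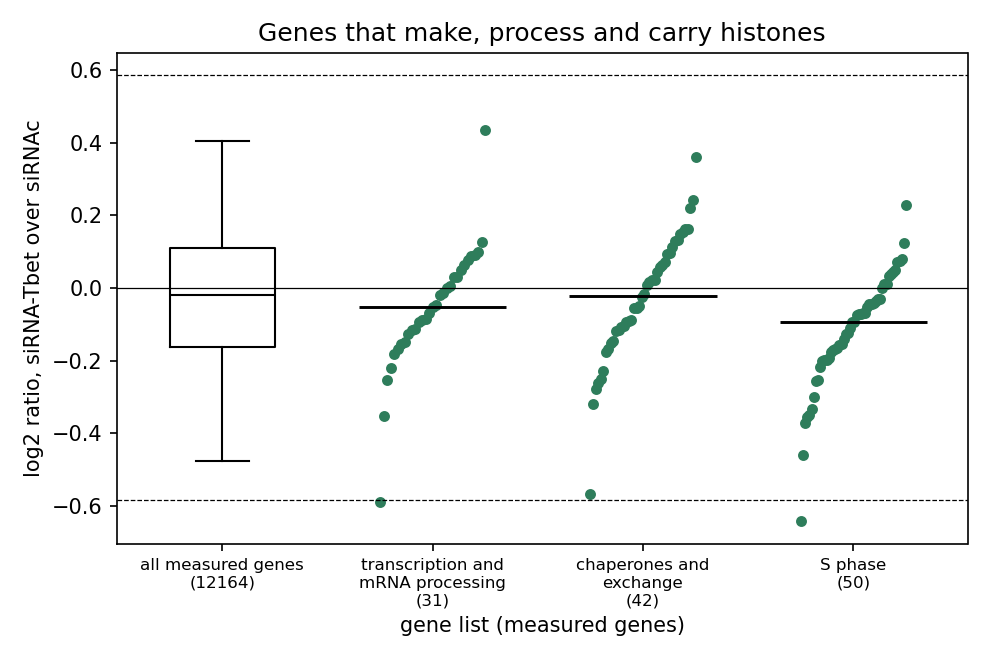
Log2 ratio of siRNA-Tbet over siRNAc (y axis) for the measured genes of 3 lists (x axis, with their number), each point 1 gene and each thick line a median; the box shows all 12164 measured genes with the median, the quartiles and whiskers at the 5th and 95th percentiles, and dashed lines mark 1.5-fold. The medians are -0.05, -0.02 and -0.09 from left to right, beside -0.02 for all genes.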

How the data were processed

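The arrays held total RNA from IL-18-stimulated KG1 cells, 1 array for siRNA-Tbet and 1 for siRNAc. The authors deposited 1 linear intensity for each probe set, computed with MAS5 per the submitters' processing notes, which name no version. MAS5 subtracts mismatch signal, which makes low intensities noisy. Both arrays had a trimmed mean of 1000 (2% off each end), and no further scaling was applied.

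Gene names came from the platform's annotation, with symbols updated through Entrez numbers to RefSeq (GRCh38.p14). Signals below an array's median were raised to it, and a fold against such a value is a lower bound ("at least"). The technical spread was computed in 10 bins of the signal of the brighter probe set of each gene. Gene values use the probe set of highest mean log2 signal, avoiding _x_at. The text names every measured histone gene with a probe set of its own, and 4 genes with the largest ratios per list. The members and lists were chosen with earlier results of these data known. The procedure was tested on simulated data with changes planted in bright probe sets only. Recovery of changes at low signals or at the floor was therefore not tested. Python 3.11.15, pandas 2.3.3 and statsmodels 0.14.6 were used. Alternatives were other scalings, floors, folds and choices of probe set.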

Additional observations from a re-analysis of the deposited data

How the results depend on the processing

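No paired analysis was possible because each group holds 1 array, and for the same reason no replicate could be left out. Over the alternatives the replication-dependent median ranged from -0.13 to 0.04, the variant median from -0.12 to 0.0048, and their difference from -0.09 to 0.11, so the sign of each depended on the setting. The medians ranged from -0.07 to -0.03 for the transcription and processing genes, from -0.03 to 0.00048 for the chaperones and from -0.11 to -0.07 for the S phase genes. Counts past 1.5-fold moved with the floor. A floor at the 25th percentile gave 7 higher and 14 lower histone probe sets of 82 measured, and 5563 higher and 5393 lower probe sets in all. A floor at the 75th percentile gave 0 and 0 histone probe sets, and 71 and 82 in all. With no floor 4 histone probe sets were higher, and 1728 were higher and 1860 lower in all. A fold of 2 gave 0 higher and 2 lower histone probe sets, and 89 and 119 in all. Without _x_at probe sets 1 of 42 histone probe sets was higher and 2 were lower. Among the 38 listed for 1 gene 2 were lower. With the reported settings 2.95% of all measured probe sets were that much higher and 3.56% that much lower. With 1 probe set per gene 1 of 28 was higher and 2 were lower, against 1.96% and 2.96% of all measured genes. Limited to probe sets above the median on both arrays, 2 of 52 were higher and 2 lower, against 2.41% and 2.79% of all such probe sets. Of the log2 ratios of single histone probe sets recomputed, 414 stayed within 0.171, the smallest technical spread, of the reported one and 11 did not. The 414 include many values that could not move. Settings that only leave out probe sets change no ratio. A lower floor or no floor changes none for the 52 probe sets above the median on both arrays. The 414 are therefore no measure of stability. The 11 include H1-7, at -2.13 with the floor at the 25th percentile, and are of probe sets that rest on a raised value, except that H1-2 moved from 0.64 to 0.15 with the floor at the 75th percentile, since that floor lies above its siRNAc signal. The 3 other scalings moved none of the counts past 1.5-fold by as much as 1.5 times. Depth is unknown for arrays; signal near the median sets the limit for 8 of the 60 measured histone probe sets, which rest on a raised value.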
